A study of Mus musculus with 7 samples.

Results

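Integrins, laminins and the other proteins of the basement membrane were followed as 1 family of genes in the medial prefrontal cortex of mice. The members were the rows whose symbol is that of an integrin alpha or beta subunit, a laminin chain, Nid1, Nid2, Hspg2, Agrn, Fn1, Dag1 or Vtn, which gave 43 of the 17732 genes listed. They comprise 18 integrin alpha subunits, 7 integrin beta subunits, 11 laminin chains and 7 other proteins, each with 1 gene identifier. Itgb6, which the rule would also take, was not analysed here. The tissue came from male wild-type (WT) mice of the inbred strain 129SvEv and was sampled once a remote memory had been retrieved; the group named CFC has 3 libraries and the group named SC has 4. What the names stand for is not in the labels. Animal age, and whether each library came from 1 animal, are not given in the sources used here, so the p-values measure the spread between these libraries.

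Basement membranes are thin sheets of matrix that, in the brain, surround blood vessels and lie under the pia. Laminins, trimers of an alpha, a beta and a gamma chain, polymerise into a network that nidogens and heparan sulfate proteoglycans join to a second network of collagen IV. Cells hold on to these sheets through dystroglycan and through integrins, heterodimers of an alpha and a beta subunit that also bind fibronectin, vitronectin and ligands on other cells. In the cortex, integrins are further found on neurons, astrocytes, microglia and oligodendrocytes.

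All values come from the authors' deposited table, which gives for each gene a mean normalized count over the 7 libraries, a log2 fold change between the groups, its standard error and p-values. The numerator of the fold change is not stated, so differences are called positive or negative and no group is called higher. Values of single libraries were not analysed here, and it could not be checked whether 1 library decides a value. The 6 markers of cortical excitatory neurons had mean counts of 2316 or more, and the 7 striatal markers were detected as well. Exons of 15 members overlap another annotated gene in GENCODE M21, and apart from Itgam and Itga10 each overlap covered 8.60% or less of the member's exon sequence. Each value is given as the log2 fold change ± its deposited standard error. In bulk tissue, fewer cells of a type and less RNA per cell cannot be told apart.

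Transcripts of agrin, dystroglycan and vitronectin led the family in level. Counts grow with transcript length, so levels were compared as the mean count per kb of annotated exon. Agrn, the proteoglycan agrin, had 617 counts per kb, Dag1, which encodes both dystroglycan subunits, had 364, and the adhesive glycoprotein gene Vtn had 271. Itgb1, the beta subunit shared by most matrix-binding integrins, followed with 254, and Itgav, the alpha subunit that binds ligands with an RGD motif, with 194. With the longest annotated transcript as the length, Agrn, Dag1 and Vtn stayed in this order and Itgav moved from rank 5 to rank 4, before Itgb1. The median of the 43 members was 15.4 counts per kb, beside 63.7 for 17726 genes with an annotated length. The spread of these levels between libraries was not analysed here, so neighbours in this order cannot be said to differ.

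Within each class of chain a few genes held most of the summed level per kb. Itgav made up 38.7% of the alpha subunits and Itga3, a laminin receptor subunit, 16.3%. Itgb1 made up 46.2% of the beta subunits, Itgb5 22.8% and Itgb8 19.4%, and the last of these forms with alphaV an integrin that activates latent TGF-beta. Among laminin chains, Lama5 held 37.3% of the alpha, Lamb2 53.8% of the beta and Lamc1 72.9% of the gamma level. The leading laminin alpha and beta chains depend on the length used: with the longest transcript, Lama4 (28.7%) stood before Lama5 (28.0%), and Lamb1 (51.4%) before Lamb2 (43.0%). Itgb8 (22.8%) then also stood before Itgb5 (22.1%), and 7 of the 43 members changed their rank in the family by more than 3 places. The leukocyte alpha subunits Itgam, Itgal, Itgae, Itgax and Itgad were at 6.84, 2.52, 1.13, 0.633 and 0.515 counts per kb. Itgam is uncertain, since 68.7% of its exon sequence is shared with the overlapping gene Gm49368 on the same strand.

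**Figure D1:**
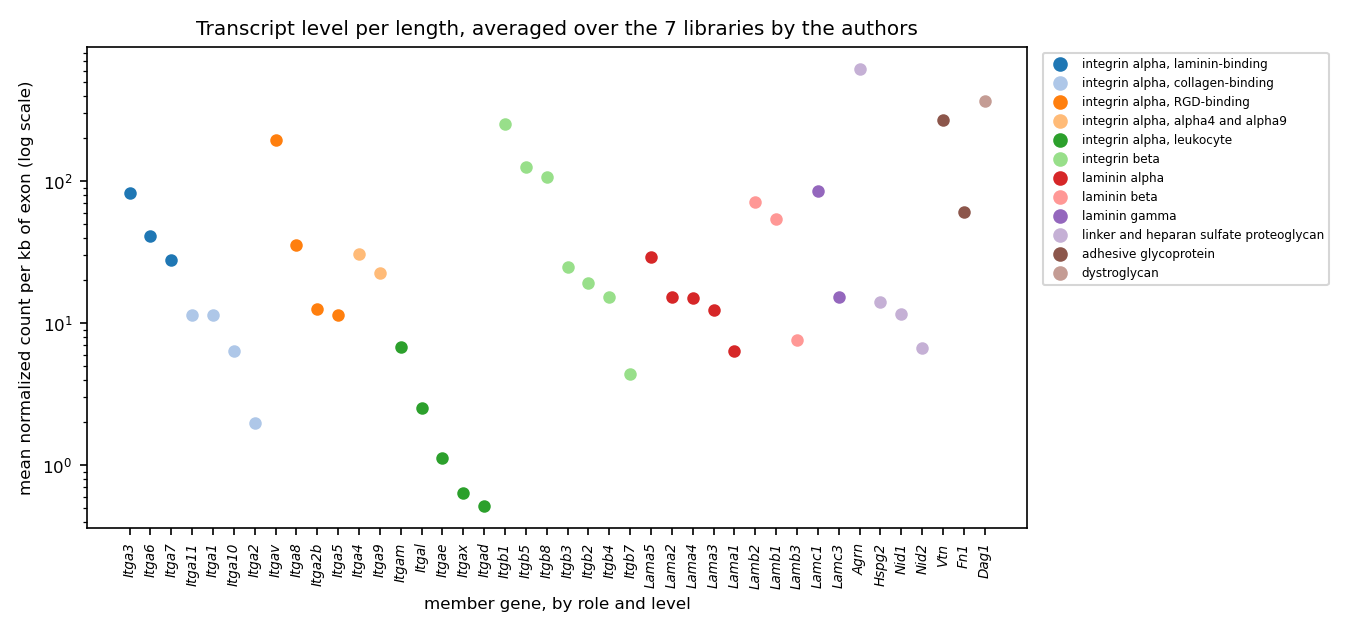
Mean normalized count per kb of exon (vertical axis, log scale) for 42 of the 43 members (horizontal axis, grouped by role and ordered by level within a role). Each point is the authors' mean over the 7 libraries; Agrn is highest at 617 and Itgad lowest at 0.515.

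No member passed an adjusted p-value of 0.05 between CFC and SC. An adjusted p-value was given for 34 members and 0 of them passed the authors' Wald test, where 0.513% of all genes with an adjusted p-value did. Of the 43 members, 5 had an unadjusted p-value under 0.05, or 11.6%, beside 6.82% of all genes. The positive ones were Itga5 and Itgb4, 4.65% of the members beside 4.04% of all genes. The negative ones were Itga6, Itgb2 and Agrn, 6.98% beside 2.78%. The share of positive members was 48.8%, beside 50.3% of all genes, and the median log2 fold change was -0.0027, beside 0.00098 over all genes in the authors' deposited table.

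The intervals set a limit on the size of most differences. From the deposited values, the 95% confidence interval lay within 1.2-fold of no change for 10 members (23.3%, beside 34.7% of all genes). It lay within 1.5-fold for 26 members (60.5%, beside 64.8%) and within 2-fold for 36 (83.7%, beside 76.2%). The 10 were Agrn, Dag1, Itgav, Itgb1, Itgb8, Fn1, Lamb1, Itga3, Itgb5 and Lamb2, with mean counts of 436.1 or more. The 7 members whose interval reached beyond 2-fold were Itga2, Itgb7, Itgae, Itgax and Itgad, with mean counts of 14.2 or less, and Itga5 and Itgb4, at 56.7 and 107.9.

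**Figure D2:**
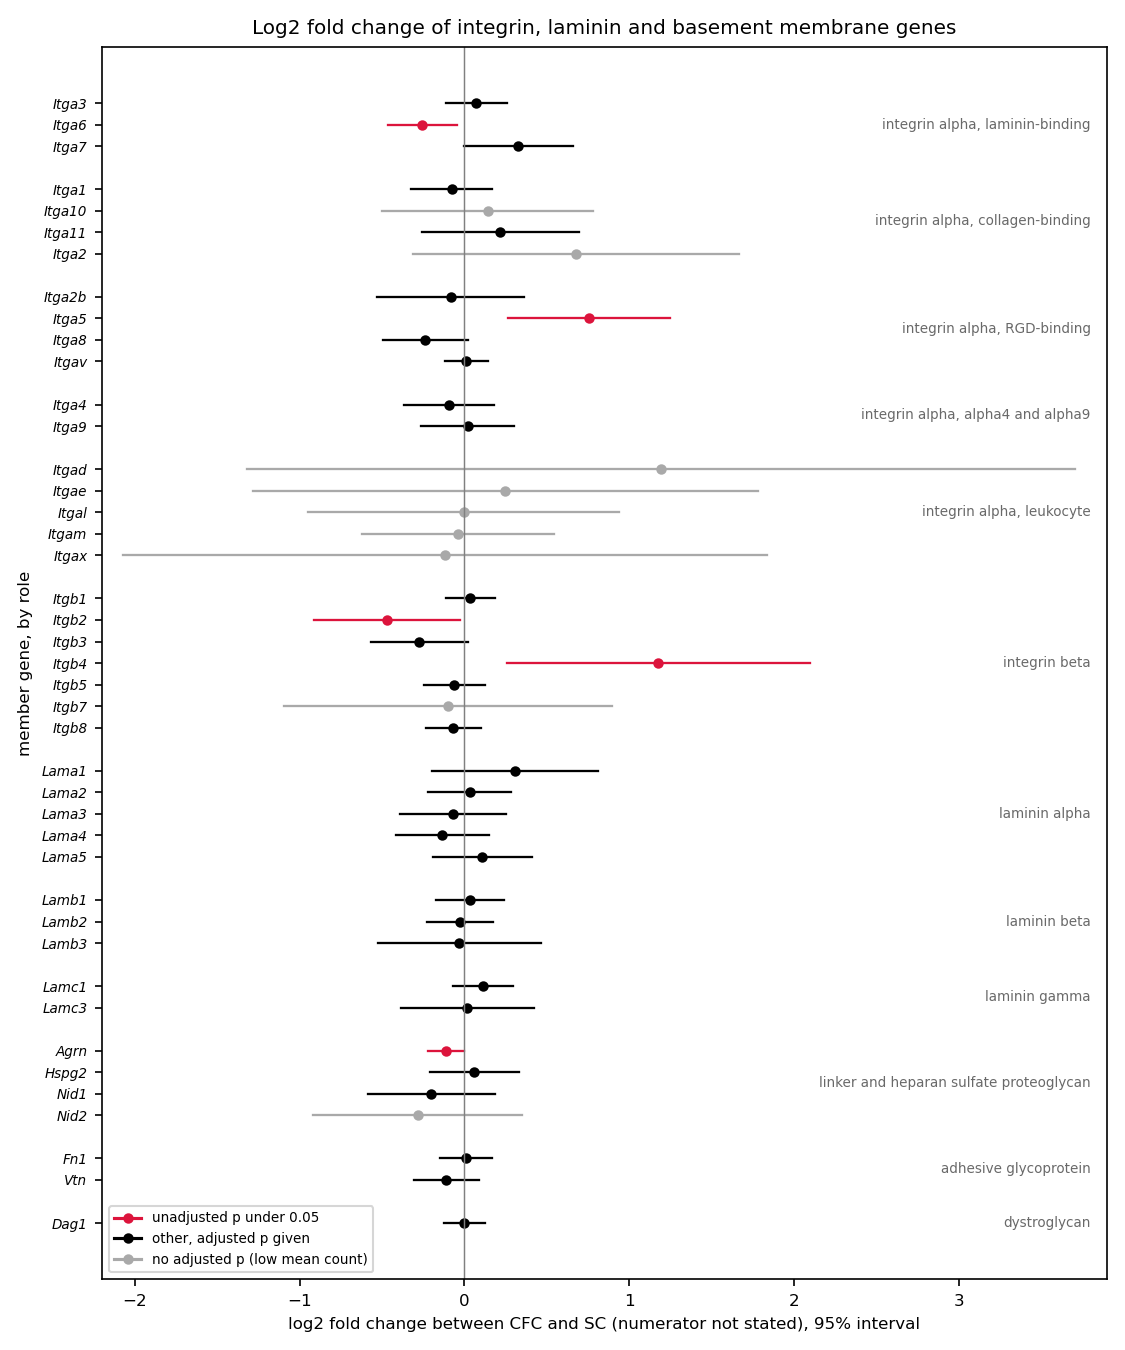
Log2 fold change between CFC and SC with its 95% confidence interval (horizontal axis) for 42 of the 43 members, grouped by role (vertical axis). Red points are the 5 members with an unadjusted p-value under 0.05, grey points the 9 members without an adjusted p-value, and the interval of every other member shown spans 0.

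Among the alpha subunits that bind the RGD motif, Itga5 had the smallest p-value of the family. Itga5 (ENSMUSG00000000555, GRCm38 chromosome 15, 103344286 to 103366763, minus strand) encodes the alpha subunit of the classical fibronectin receptor. The authors' deposited table gave it 0.76 ± 0.25, with p-values of 0.00256 unadjusted and 0.185 adjusted. The interval ran from 0.27 to 1.25 at a mean count of 56.7, with a standard error 1.02 times that of genes of similar count. Itgb1, the partner of alpha5, was measured far more precisely, at a mean count of 1036, and stood at 0.03 ± 0.08 in that table. Fibronectin itself, Fn1, was at 0.01 with an interval from -0.15 to 0.17. Itgav was close to 0 as well, at 0.01 ± 0.07. Itga8, the receptor subunit for nephronectin, was listed by the authors at -0.24 ± 0.13 (adjusted p-value 0.741). Itga2b, the platelet subunit, had -0.08 ± 0.23.

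The 3 alpha subunits that bind laminin did not share a sign. Itga6 (ENSMUSG00000027111, GRCm38 chromosome 2, 71745616 to 71858416, plus strand) stood at -0.26 ± 0.11 in the authors' deposited table. The p-values were 0.0160 unadjusted and 0.430 adjusted, at a mean count of 372.5. The interval of Itga6, from -0.47 to -0.05, leaves no room for a change as large as 1.5-fold. Itga7, known as the main laminin-binding alpha subunit of muscle, had 0.33 ± 0.17, and its unadjusted p-value of 0.0527 was the nearest above 0.05. For Itga3 the authors' deposited table gave 0.07 ± 0.09.

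The collagen-binding subunits Itga1, Itga2, Itga10 and Itga11 were listed by the authors at -0.08, 0.68, 0.14 and 0.22 on the log2 scale, and their unadjusted p-values ran from 0.181 to 0.667. Of these, Itga1 was measured best, with an interval from -0.32 to 0.17, while Itga2 rested on a mean count of 14.2. For Itga10, 33.5% of the exon sequence is shared with Gm42957 on the same strand, so its count is uncertain. Itga4 and Itga9, which bind fibronectin, VCAM1 or tenascin-C, had -0.09 ± 0.14 and 0.02 ± 0.14. Among the leukocyte subunits Itgal and Itgam were at -0.0045 and -0.04, and the standard errors of all 5 ran from 0.30 to 1.28, so a 1.2-fold change was not detectable at this depth.

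Itgb4 had the highest log2 fold change among members with a mean count of at least 100. Itgb4 (ENSMUSG00000020758, GRCm38 chromosome 11, 115974709 to 116008412, plus strand) encodes the beta subunit that pairs with alpha6 alone and anchors epithelial cells through hemidesmosomes. The authors' deposited table gave it 1.18 ± 0.47, with p-values of 0.0123 unadjusted and 0.389 adjusted. The mean count was 107.9 and the interval ran from 0.26 to 2.10. Its partner Itga6 thus carried the opposite sign, and the difference between the pair was not tested. Of the exon sequence of Itgb4, 7.66% is shared with B230344G16Rik on the opposite strand, and the strand setting is not given in the sources used here.

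The standard error of Itgb4 was large for its abundance, 2.61 times the median of genes of similar mean count. It was the only 1 of the 34 members with an adjusted p-value above 2 times, 2.94%, beside 1.85% of all such genes. The next were Itga4 at 1.39, Lama5 at 1.38 and Itga7 at 1.30, and the median of the 43 members was 1.02. A list of 8 oligodendrocyte markers, Mbp, Mog and Mobp among them, had positive log2 fold changes from 0.95 to 1.67 in the authors' deposited table, and a median ratio of 6.73. A list of 7 striatal markers had positive values from 0.14 to 1.95 and a median ratio of 3.35. These 2 lists thus shared with Itgb4 a positive sign and an excess error. All their genes were detected, at mean counts of 76.0 or more. They were not alone in this. Markers of layer 6 and 6b were positive in 8 of 8 genes, with a median ratio of 1.42 and a ratio of 2.72 for Ccn2. Whether any list varied with Itgb4 between libraries was not analysed here, and the part of these lists in its value was not tested.

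**Figure D3:**
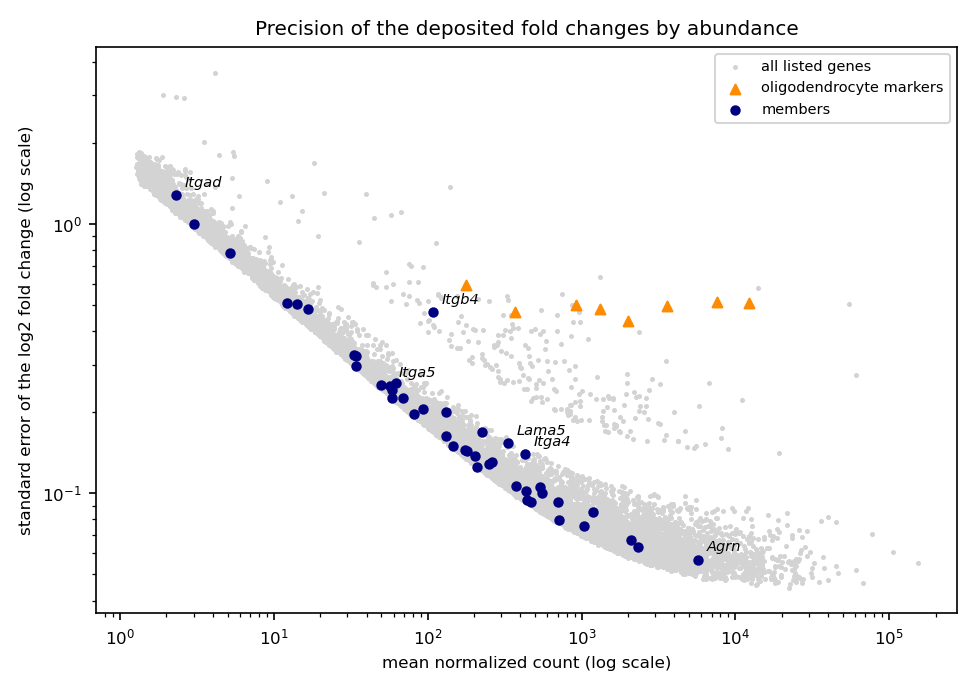
Standard error of the log2 fold change (vertical axis, log scale) against mean normalized count (horizontal axis, log scale) for all listed genes (grey), the 43 members (blue) and 8 oligodendrocyte markers (orange triangles). The members follow the trend of all genes except Itgb4, at 2.61 times the median of genes of similar count. The standard error of Itgb4 itself is like those of the triangles, but their median ratio is larger, 6.73.

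Itgb2 was the most negative member of the family. Itgb2 (ENSMUSG00000000290, GRCm38 chromosome 10, 77530252 to 77565708, plus strand) encodes the beta subunit common to the leukocyte integrins, which in brain tissue are found on microglia. The authors' deposited table gave it -0.47 ± 0.23, with p-values of 0.0386 unadjusted and 0.599 adjusted. The mean count was 58.4 and the interval ran from -0.91 to -0.02. Of its 4 alpha partners, Itgam, Itgal and Itgax had negative log2 fold changes and Itgad a positive one, each with an interval that spans 0.

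Markers of microglia, blood and brain endothelium were mostly negative, as Itgb2 and Itga6 were. Of 8 microglial markers 7 were negative, and Aif1 was positive, at 0.31. The median of the 8 was -0.14, and 2 had an unadjusted p-value under 0.05, Csf1r among them. Ptprc, expressed by all white blood cells including microglia, was listed by the authors at -0.52 (adjusted p-value 0.547). It belongs to a list of blood markers of which 5 were measured, all negative, with a median of -0.40 and mean counts of 27.0 or more. On it 2 genes had an unadjusted p-value under 0.05. The others measured, Hba-a1, Hba-a2, Hbb-bt and Alas2, are red blood cell genes, at -0.40, -0.42, -0.10 and -0.03. All 8 markers of brain endothelium, a cell type that expresses Itga6, were negative, from -0.27 to -0.07, with 3 at an unadjusted p-value under 0.05 (Slco1a4, Tek and Flt1). The endothelial markers had mean counts of 88.6 or more and the microglial ones of 21.2 or more. Markers of oligodendrocytes, where integrins are also found, were positive in 8 of 8 genes, opposite in sign to Itga6 and Itgb2. A negative sign was also common elsewhere, in 8 of 8 upper-layer and 6 of 8 astrocyte markers. An adjusted p-value was given for 7 microglial, 4 blood and 8 endothelial markers, and 0 of them passed 0.05. Of all genes, 6.82% had an unadjusted p-value under 0.05. The part of any of these cells in the values of Itga6 and Itgb2 was not tested.

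Among other cells that lay down basement membrane, pericytes, mural cells and fibroblasts showed no common sign, and astrocyte markers were mostly negative. The 9 markers of pericytes and mural cells had a median of 0.0041, and the 9 of vascular leptomeningeal cells and fibroblasts a median of 0.23 with 5 positive and 4 negative. Neither list held a gene with an unadjusted p-value under 0.05. Of 8 astrocyte markers 6 were negative, with a median of -0.08. On that list 1 gene had an unadjusted p-value under 0.05, Slc1a3 at -0.14 (0.0434 by the authors' Wald test). Vtn, the vitronectin gene that pericytes express, stood at -0.11 ± 0.10 in the authors' deposited table (adjusted p-value 0.960).

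Of the other beta subunits, Itgb3 was at -0.27 ± 0.15 in the authors' deposited table, where its unadjusted p-value was 0.0674. Itgb5 and Itgb8, the most abundant partners of alphaV per kb after Itgb1, were measured with small errors and lay near 0. The authors' deposited table gave -0.06 ± 0.09 and -0.07 ± 0.09, and both intervals lie within 1.2-fold. Itgb7 had -0.10 ± 0.51.

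The subunits were also read as the 24 heterodimers that integrins are known to form. Both subunits were listed for 23 of them, and the signs of the 2 log2 fold changes were the same in 13 and opposite in 10. Since Itgb1 enters 12 of the pairs at a value near 0, these counts are not independent of each other.

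Laminin chains showed both signs, and among them only Lamb1 and Lamb2 had intervals within 1.2-fold of no change. Of the 11 chains 0 reached an unadjusted p-value of 0.05, with 7 log2 fold changes positive and 4 negative, and the chains named here ranged from -0.13 for Lama4 to 0.31 for Lama1 in the authors' deposited table. Lama2, Lama4, Lama5, Lamb1, Lamb2 and Lamc1, which are among the chains of vascular and pial laminins, were at 0.03, -0.13, 0.11, 0.03, -0.02 and 0.11 on the log2 scale. Lamc1, present in most laminin trimers, had an interval from -0.07 to 0.29, and Lamb2 one from -0.22 to 0.17. Lama3 and Lamb3, chains of an epithelial laminin, were listed by the authors at -0.07 and -0.03. Lama1 had 0.31 ± 0.26, and Lamc3 0.02 ± 0.21.

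Agrin was the family's most abundant transcript and its most precisely measured one. Agrn (ENSMUSG00000041936, GRCm38 chromosome 4, 156165290 to 156197488, minus strand) encodes a heparan sulfate proteoglycan that organises the neuromuscular synapse and is also made by central neurons and in vascular basement membranes. The authors' deposited table gave it -0.11 ± 0.06, at a mean count of 5725. The unadjusted p-value was 0.0458 and the adjusted one 0.629, and the interval, from -0.22 to -0.0021, keeps the difference below 1.2-fold. The perlecan gene Hspg2 had 0.06 ± 0.14. The nidogen genes Nid1 and Nid2, whose products bridge laminin and collagen IV, were listed by the authors at -0.20 ± 0.20 and -0.28 ± 0.32.

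Of 5 genes listed for the agrin receptor pathway, 3 had an adjusted p-value, and 1 of these was among the 67 genes that passed. This was Prss12, the protease neurotrypsin that cleaves agrin, which the authors' deposited table lists at 0.33 ± 0.09 (adjusted p-value 0.0436). The agrin receptor gene Lrp4 had 0.04 ± 0.08, at a mean count of 1367, and Dok7 0.01 ± 0.11. Musk and Rapsn had mean counts of 6.63 and 5.21 and no adjusted p-value. Markers of layer 6 and 6b, by which parts of the deep cortex are known, were positive in 8 of 8 genes with 5 passing. Upper-layer markers were negative in 8 of 8 with 2 passing. Of all genes with an adjusted p-value, 0.513% passed. The part of cortical layers in the value of Prss12, or of any member, was not tested.

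Dag1 had the log2 fold change closest to 0 among the 43 members, listed by the authors at -0.0027 ± 0.06. Its interval ran from -0.13 to 0.12 at a mean count of 2316. Of 17 genes of the complex that dystroglycan forms with dystrophin, 15 had an adjusted p-value and 0 passed, with 9 positive and 8 negative. Its smallest unadjusted p-value was 0.0354, for the sarcoglycan gene Sgcb at a log2 fold change of -0.14 in the authors' deposited table, and Dmd, the dystrophin gene, was the other 1 under 0.05, at 0.12. Of 13 genes that add the laminin-binding glycan to dystroglycan, 0 passed and 0 had an unadjusted p-value under 0.05. The smallest was that of the mannosyltransferase gene Pomt2, 0.115, at a log2 fold change of 0.13. The share of all genes under 0.05 unadjusted was 6.82%.

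Lists of further basement membrane components and of the adhesion machinery held no gene that passed. Of 21 genes for collagen IV and other basement membrane proteins, 18 had an adjusted p-value and 0 passed. The 21 had 9 positive and 12 negative values and a median log2 fold change of -0.03. The main collagen IV chains of vessels, Col4a1 and Col4a2, were listed by the authors at -0.09 ± 0.08 and -0.09 ± 0.08. On that list 2 genes had an unadjusted p-value under 0.05, and the smaller, 0.0166, was that of Pxdn, the peroxidase that crosslinks collagen IV, at 0.18. Of 33 genes for integrin activation and the adhesion complex, 31 had an adjusted p-value and 0 passed. The 33 had 14 positive and 19 negative values, and 3 had an unadjusted p-value under 0.05. The share of all genes under 0.05 unadjusted was 6.82%. The smallest belonged to Parva, which links integrin-linked kinase to actin, at -0.29 ± 0.11 in the authors' deposited table (adjusted p-value 0.306). The talin genes Tln1 and Tln2 and the kinase gene Ptk2, central to integrin signalling, had 0.03 ± 0.08, -0.02 ± 0.06 and 0.0030 ± 0.07.

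Of 24 measured genes for other integrin ligands, 18 had an adjusted p-value and 1 passed, beside 0.513% of all such genes. The 24 had 15 positive and 9 negative values and a median log2 fold change of 0.05. On this list 4 of the 24 genes had an unadjusted p-value under 0.05, beside 6.82% of all genes. The gene that passed was Ccn2, a matricellular protein that is also on the layer 6 and 6b list, listed by the authors at 2.10 ± 0.37 (adjusted p-value 3.66e-05). The others under 0.05 unadjusted included Mfge8, whose product binds alphaV integrins, at -0.19 ± 0.07 in the authors' deposited table (adjusted p-value 0.298), and Thbs2, a thrombospondin gene, at 0.40 ± 0.20 (adjusted p-value 0.613). Of other abundant ligands, Tnr, Reln, L1cam and Cd47 were at -0.06, -0.01, 0.07 and 0.09 on the log2 scale, each with a standard error of 0.07 or less.

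**Figure D4:**
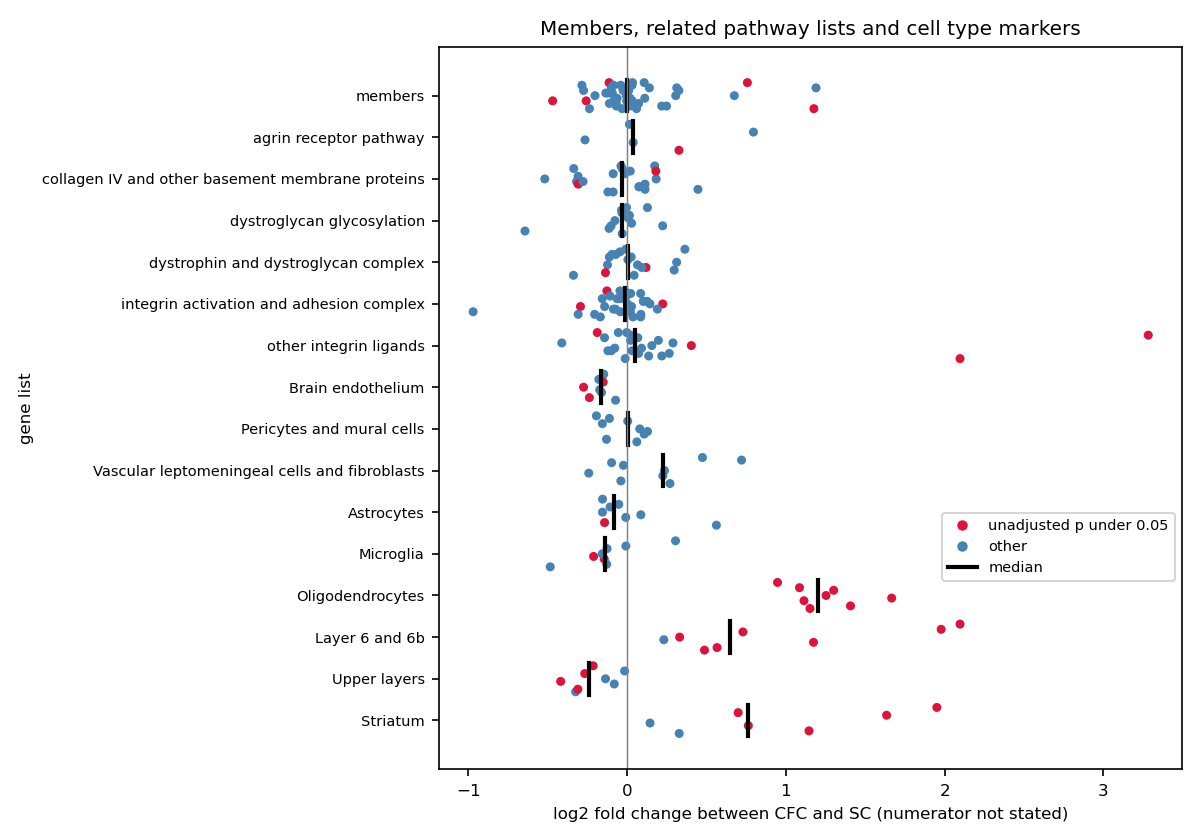
Log2 fold change between CFC and SC (horizontal axis) for the 43 members, 6 lists of related genes and 9 lists of cell type markers (vertical axis); a point is a gene, red where its unadjusted p-value is under 0.05, and a bar is the median. The members have a median of -0.0027, while the oligodendrocyte markers lie between 0.95 and 1.67 and the endothelial markers between -0.27 and -0.07.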

How the data were processed

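Polyadenylated RNA of 7 libraries (3 CFC, 4 SC) was sequenced; per the labels' protocols, 100 ng of RNA from the RNeasy Micro kit entered the KAPA mRNA HyperPrep kit. The submitters' processing notes name Trimmomatic, Subread, DESeq2 and the build mm10, without versions or roles; the annotation and strand setting are not given in the sources used here. Per the file headers, the authors deposited for each gene a mean normalized count (a signal averaged over libraries), a log2 fold change with its standard error, the Wald statistic (a score), and an unadjusted and an adjusted p-value. The table names neither side of its comparison, and it was read as CFC with SC because the labels hold no other groups. The depth of single libraries is unknown. No adjusted p-value was given at mean counts of 34.8 or less.

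The planned test was the deposited Wald test with its adjusted p-value over all genes and a threshold of 0.05; no p-value was adjusted over the members alone. Confidence intervals of 95% were computed from the log2 value and its deposited error on a normal scale. The ratio of each error to the median over the 201 genes nearest in mean count was taken as its excess. Exon lengths, overlaps and coordinates came from GENCODE M21 (GRCm38, the assembly of mm10), which held 17726 of 17732 identifiers. Calculations used Python 3.11.15, pandas 2.3.3 and scipy 1.17.1, and were tested on simulated data. Members, lists of related genes and marker lists were chosen with earlier results of these data known. Members were described in full where the unadjusted p-value was under 0.05 or nearest above it (2 members), where the mean count was among the 2 highest of a role, where the fold change was among the 3 highest or 3 lowest at a mean count of at least 100, or where the standard error was over 2 times that of similar genes. In lists, genes that passed are named, or else the gene with the smallest p-value; other genes of a list were named for their role or abundance after their values were seen. Single values of 1 member and of a few list genes are not reported here; counts and medians include them.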

Additional observations from a re-analysis of the deposited data

How the results depend on the processing

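The count of members under the threshold stayed at 0 under all 6 alternatives, which tested 43 members with no filter, 41 and 26 at mean counts from 5 and 100, and 34 otherwise: a threshold of 0.1, adjustment over every listed gene or over those at mean counts from 5 or from 100 upwards, a Bonferroni adjustment, and a null of up to 1.2-fold. Over all genes the 67 calls became 101 at a threshold of 0.1, 21 by Bonferroni and 2 against the 1.2-fold null, and stayed between 60 and 68 otherwise. The 5 members at an unadjusted p-value under 0.05 became 1 at 0.01 (Itga5), 3 at a mean count of at least 100 (without Itga5 and Itgb2) and 1 against the 1.2-fold null. The median log2 fold change of the members changed sign within its narrow range, from -0.0027 to 0.0035 without low counts. A mean weighted by the inverse squared standard error, which is a different measure from the median, was -0.02. For the 28 named members, all 77 recomputed adjusted p-values stayed above 0.05, the lowest at 0.211. The length alternative and the restriction to members with an adjusted p-value were chosen after seeing the data. No paired analysis was possible because values per library were not analysed here; the planned replicate block and the fits without a replicate were not run for that reason.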

Other observations

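Outside the family, 3 genes of the related lists had errors over 3 times the median of genes at like counts. They were named after their values had been seen. Next on these lists was Ccn2, at 2.72 times. Thbs4, a thrombospondin gene on the list of other integrin ligands, was listed by the authors at 3.28 ± 1.05 (log2 fold change ± standard error). Its p-values were 0.00180 unadjusted and 0.159 adjusted, at a mean count of 44.7, and its error was 3.85 times the median of genes at like counts. Smoc2, a calcium-binding basement membrane protein, stood at -0.52 ± 0.31 in the authors' deposited table (unadjusted p-value 0.0962), with an error 3.29 times that median. Npnt, the gene of the integrin ligand nephronectin, was listed by the authors at -0.12 ± 0.34 (unadjusted p-value 0.725), with an error 3.82 times that median.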
